A study of Mus musculus with 24 samples.

Results

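Mouse embryonic stem cells with CTCF present were compared with cells of the same genotype label in which CTCF had been targeted for degradation for 2 days, by total RNA sequencing. The members of the comparison are 4 of the 24 libraries of the series, chosen by their labels: 2 of untreated cells and 2 of cells treated with IAA alone. All cells derive from the E14Tg2a line of strain 129/Ola. A degron tag on the cells' own CTCF marks the protein for destruction when the auxin indole-3-acetic acid (IAA) is added. The genotype label is WT in both groups, and per the series' design text the WT line carries a wild-type Ctcf transgene that doxycycline switches on. Untreated cells received neither agent, and WT IAA cells received 500 µM IAA for 2 days, so no transgene was induced in either group. Another group, WT ID, received IAA and 1 µg/ml doxycycline for 2 days, the second agent being the one that switches on the transgene per the labels' protocols. Its 2 libraries are given beside the others as a description, and for some genes a contrast of WT IAA with WT ID was also tested. Every group was grown without feeder cells in serum, leukemia inhibitory factor, the GSK3 inhibitor CHIR99021 and the MEK inhibitor PD0325901. CTCF protein was not measured here. Each group is 1 line with 2 libraries, and no label says that these came from separate cultures. The p-values below therefore rest on a spread among libraries that could be technical alone.

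CTCF is a zinc finger protein that binds insulator sites across the genome. At these sites it halts the loop extrusion carried out by cohesin, which sets the borders of topologically associating domains, and it can keep an enhancer from acting on a gene beyond the border. Where a CTCF site lies in a promoter, as in the clustered protocadherin genes, it can also join that promoter to a distant enhancer.

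IAA was present in 1 arm only, and the untreated libraries were deposited in tables of their own, whose normalized counts had been scaled apart from the rest. The loss of CTCF, the chemical itself and the table therefore cannot be told apart in any result of untreated against WT IAA. Values are transcripts per 1000000 (TPM), a measure scaled by gene length. Each library was multiplied by 1 factor so that its median gene matched the mean of all libraries, and the products are called scaled TPM. The factors were 1.04 and 1.12 for untreated replicates 1 and 2 and 0.946 and 0.959 for WT IAA. Fold changes are differences in log2(TPM + 0.1), WT IAA minus untreated, with standard errors. The 0.1 was added to the deposited TPM, and log2 of the library's factor was added after the logarithm was taken. Genes are called at an adjusted p under 0.05 in limma (Benjamini-Hochberg over all genes tested). The 0.1 shrinks the fold change of a gene with few reads in either group. For 9 named genes where edgeR on the recovered reads differed from limma by more than 1.5 times, the edgeR log2 fold change is given too. Such gaps were also found for Khdc1a, Khdc1c, Oas1e, Cd4 and Gap43, for which no log2 fold change against untreated cells is printed. Paired values are always given as replicate 1 and replicate 2.

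Untreated libraries held 31.0 and 36.9 M reads (M, 1000000), WT IAA libraries 47.3 and 35.0 M, and WT ID libraries 57.5 and 42.9 M. Genes with at least 1 read numbered 25463 and 25800 in the untreated libraries, the lowest 2 counts of the series, against 28783 and 27872 in WT IAA and 27119 in the shallowest library of the series (27.8 M reads). A set of 2098 olfactory and vomeronasal receptor, keratin-associated and beta-defensin genes, which stem cells are not known to use, was summed in reads per 1000000 (RPM). It took 51.6 and 54.2 RPM in untreated cells, 89.8 and 86.6 in WT IAA and 73.6 and 72.3 in WT ID, and the range over the series was 42.7 to 90.8. This family set was chosen after seeing the data, and its part in the increases of low-level genes below was not tested. Reads on mitochondrial genes made up 1.99% and 2.02% of the untreated and 2.03% and 2.18% of the WT IAA libraries. Stem cell markers were abundant in all 4 libraries. Pou5f1, the core pluripotency factor Oct4, stood at 738 and 827 scaled TPM in untreated cells and 601 and 584 in WT IAA, and Nanog stood at 1539.9 and 1447 in untreated cells and at 1453 and 1511 in WT IAA.

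The Ctcf gene (chr8:105636568-105682922, plus strand, mm10 as for all gene coordinates here) stood at 131 and 140.4 scaled TPM in untreated cells, 138 and 136 in WT IAA and 149 and 155 in WT ID. The untreated and WT IAA libraries overlapped, and the difference was not called (log2 fold change 0.01 ± 0.05, adjusted p = 0.91). WT IAA minus WT ID was not called either (log2 difference -0.15 ± 0.05, adjusted p = 0.06), though both WT ID libraries lay above every untreated and WT IAA library. Whether the transgene adds to the Ctcf total was not tested. A degron acts on the protein, so the transcript does not check the treatment. With the TPM as deposited, without the scaling factor, Ctcf was called higher in WT IAA (log2 fold change 0.19).

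None of the 15 largest decreases or 15 largest increases for which RefSeq lists a promoter had the core of the CTCF motif within 250 bases before to 50 bases after its start site. The core was searched on both strands as CCANNAGNNGGC, where N is any base. Shown instead are the 6 largest decreases that did hold it (chosen after their values were seen), as examples of a core in the promoter of a gene that fell. Each stretch is 30 bases of the RefSeq promoter table (GRCm38.p6, the assembly of mm10), printed 5′ to 3′ on the strand that reads the core forward, with the core in capitals.
Igfbp4: tcggccggcCCAGCAGGCGGCggggggcag
Matn3: ccgccccgcCCACTAGAAGGCcttgccacg
Dennd6b: ccgggtcggCCAGTAGGTGGCtagtgtggc
Abhd14b: agcttgtgaCCAAGAGAGGGCgcctggaac
Peg12: acttacgggCCACCAGAAGGCagacgatgc
Krtcap2: tcctccttgCCACAAGAGGGCgctgcaccc

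In the order printed, these stretches lie at chr11:99041258-99041287 (minus strand), chr12:8947888-8947917 (minus), chr15:89196634-89196663 (plus), chr9:106448576-106448605 (plus), chr7:62464685-62464714 (plus) and chr3:89246358-89246387 (plus). Igfbp4, which encodes a binding protein of insulin-like growth factors, stood at 1.83 and 2.65 scaled TPM in untreated cells and 0.117 and 0.0997 in WT IAA (log2 fold change -3.51 ± 0.37, adjusted p = 2.5e-06, and -4.31 in edgeR), and at 0.0595 and 0.181 in WT ID. Peg12, a paternally expressed imprinted gene, stood at 5.02 and 4.40, then 0.514 and 0.501 (log2 fold change -3.00 ± 0.27, adjusted p = 5.6e-07), and 1.10 and 0.963 in WT ID. Krtcap2, a subunit of the oligosaccharyltransferase that attaches sugars to new proteins, was the most abundant of the 6, at 54.1 and 62.4 in untreated cells, 9.08 and 12.3 in WT IAA (log2 fold change -2.45 ± 0.18, adjusted p = 7.5e-08) and 33.9 and 33.2 in WT ID. No overlap between the untreated and WT IAA libraries was a condition for choosing the 6 genes, so their separation is not a result. Matn3, a cartilage matrix protein, Dennd6b, a regulator of Rab proteins, and Abhd14b, a hydrolase, fell by 3.13 to 3.46 on the log2 scale. The highest of their WT IAA values (0.646 scaled TPM, Dennd6b) was below the lowest of their untreated values (2.86, Matn3).

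Of the 27025 promoters in the table, 2.82% held the core, and of the 11342 tested genes with a promoter there 3.36% did. The share was 5.53% (31 of 561) among genes that fell at least 2-fold and 8.40% (10 of 119) among those that fell at least 4-fold. It was 3.06% among genes that rose at least 2-fold, 2.09% among those that rose at least 4-fold and 3.22% among genes not called. These shares are descriptions of letters in a window and were not tested.

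Of 19214 genes tested, 8092 (42.1%) were called: 3976 (20.7%) were higher in WT IAA and 4116 (21.4%) were lower. At least 2-fold changes were more often increases, with 1677 genes (8.73%) up and 894 (4.65%) down, and at least 8-fold changes numbered 242 up and 65 down. The values of the untreated and WT IAA libraries did not overlap in 8086 of the called genes. With 2 libraries in each group a call nearly requires this, so the count adds no support to the calls. An edgeR test on the whole reads recovered from the deposited counts called 3839 of the higher and 3735 of the lower genes in the same direction. The split rests on the scaling: with the TPM as deposited 5798 genes were higher and 2262 lower, since the median gene then shifted by 0.18 on the log2 scale. Low genes leaned upwards and abundant genes downwards. Of 2442 genes with a mean of 0.5 to 1 TPM, 20.7% were higher and 7.58% lower, and of 3464 genes at 50 TPM or more 15.9% were higher and 38.3% lower. Protein-coding genes divided into 3209 up and 3671 down of 13146. Long intergenic RNAs divided into 177 up and 63 down of 664 and antisense RNAs into 92 up and 47 down of 493.

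**Figure D1:**
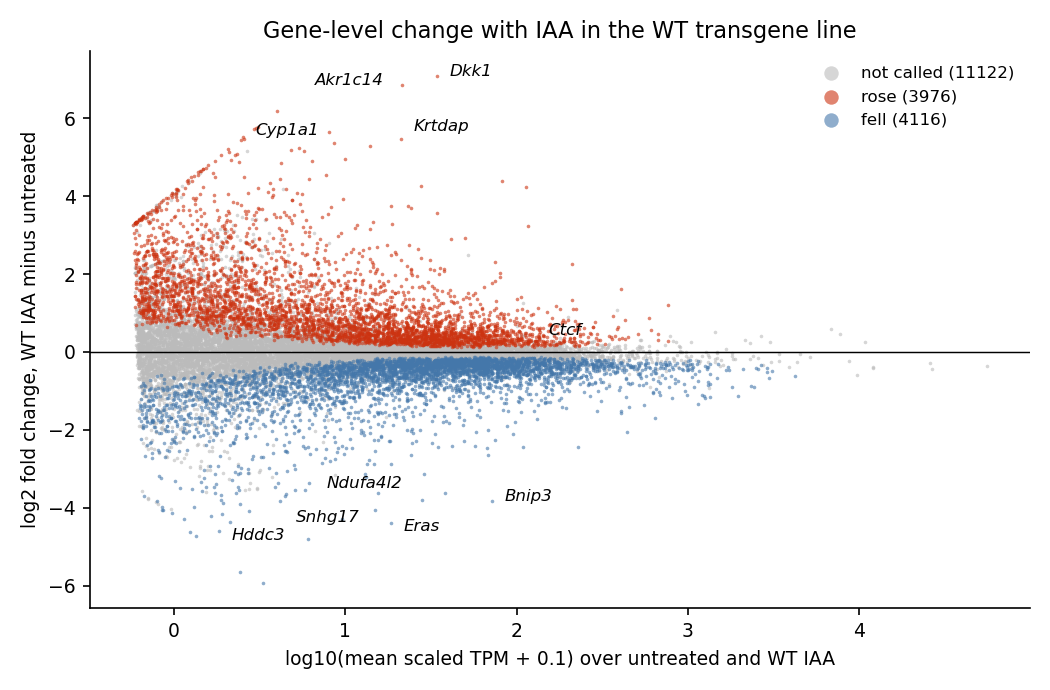
Each point is 1 of 19214 genes. The horizontal axis is log10 of the mean scaled TPM (+ 0.1) over the untreated and WT IAA libraries, the vertical axis the log2 fold change of WT IAA over untreated; red genes rose (3976), blue genes fell (4116) and grey genes were not called. The largest changes in both directions lie at low to middling levels, and the diagonal edge at the upper left holds genes with no reads in untreated cells.

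Genes that changed often had a neighbour that changed the same way. Over all 13146 tested protein-coding genes, the nearest other protein-coding start was higher in WT IAA for 22.7% and lower for 28.6%, at a median distance of 26.4 kb. For the 685 genes that fell at least 2-fold, the nearest neighbour was higher for 14.6% and lower for 41.3%. For the 1088 that rose at least 2-fold it was higher for 44.6% and lower for 17.0%. The median distance was 26.4 kb for the genes that fell and 41.5 kb for those that rose. These shares were not tested, nor was the part in them of gene level, with which direction varied as given above. Overlapping genes are among these neighbours, and reads of such genes cannot be told apart where the counting ignored strand, which the sources used here do not state.

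The 15 largest decreases were 13 genes with more than 100 reads over the untreated libraries and 2 microRNA genes, Mir7002 and Mir3474, that had 7 and 3 reads there and 0 in WT IAA and are not read further. Eras, a Ras-like GTPase made in embryonic stem cells (chrX:7924276-7928607, minus strand), stood at 37.5 and 32.8 scaled TPM in untreated cells and 1.62 and 1.56 in WT IAA (log2 fold change -4.39 ± 0.31, adjusted p = 6.1e-08), and at 2.61 and 2.97 in WT ID. Its neighbour Pcsk1n, which encodes the secretory peptide precursor proSAAS (chrX:7919822-7924410, plus strand), overlaps it on the opposite strand and stood at 18.8 and 17.4, then 0.972 and 0.724 (log2 fold change -4.28 ± 0.35, adjusted p = 2.3e-07), and 2.25 and 2.52 in WT ID. Both genes were more than 10-fold lower in every WT IAA library than in every untreated library. Hdac6, a cytoplasmic deacetylase whose start lies 19.3 kb from that of Eras, fell less, from 73.9 and 66.1 to 46.9 and 43.3 (log2 fold change -0.63 ± 0.07, adjusted p = 3.2e-06). Timm17b, 20.5 kb beyond Pcsk1n, changed from 53.5 and 54.6 to 44.2 and 45.2 (log2 fold change -0.27 ± 0.10, adjusted p = 0.042).

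Hddc3, the metazoan enzyme related to bacterial ppGpp hydrolases (chr7:80343104-80350547, plus strand), stood at 3.76 and 3.03 in untreated cells and 0.120 and 0 in WT IAA, where it had 7 and 0 reads against 135 and 125 (log2 fold change -4.60 ± 0.49, adjusted p = 3.2e-06, and -5.56 in edgeR). It stood at 0.645 and 0.481 in WT ID, above both WT IAA libraries. Unc45a, a myosin chaperone gene whose start is 2.10 kb away, changed from 12.7 and 13.7 to 8.37 and 8.65 (log2 fold change -0.63 ± 0.08, adjusted p = 1.7e-05). Hddc3 overlaps Man2a2 on the opposite strand.

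Mrpl23, a mitochondrial ribosomal protein gene that lies beside the imprinted H19 and Igf2 genes (chr7:142532686-142540747, plus strand), stood at 3.19 and 3.82 in untreated cells, 0.212 and 0.0364 in WT IAA (log2 fold change -4.16 ± 0.41, adjusted p = 1.4e-06) and 0.640 and 0.595 in WT ID. Without WT IAA replicate 1 or replicate 2 its log2 fold change was -4.77 or -3.55. The nearest tested gene on the low-coordinate side, Ctsd, which encodes the lysosomal protease cathepsin D, went the other way, from 142 and 142 to 226 and 257 (log2 fold change 0.76 ± 0.11, adjusted p = 5.7e-05). H19 and Igf2 themselves were below the level filter of a mean of 0.5 TPM. Th, the nearest tested gene on the other side, was not called.

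Cc2d2a, a protein of the ciliary transition zone (chr5:43662346-43740972, plus strand), fell from 5.30 and 4.79 to 0.161 and 0.259 (log2 fold change -4.09 ± 0.26, adjusted p = 1.8e-08) and stood at 0.576 and 0.565 in WT ID. Snhg17, a host RNA of small nucleolar RNAs (chr2:158353700-158361580, minus strand), fell from 29.7 and 26.1 to 1.52 and 1.66 (log2 fold change -4.05 ± 0.24, adjusted p = 9.6e-09) and stood at 10.4 and 10.7 in WT ID. Itga9, an integrin subunit (chr9:118606690-118901003, plus strand), fell from 2.24 and 2.46 to 0.0502 and 0.069 (log2 fold change -3.99 ± 0.40, adjusted p = 1.6e-06, and -5.28 in edgeR) and stood at 0.145 and 0.094 in WT ID. Snhg17 in WT ID lay between the other groups, and Itga9 in WT ID stayed within 0.1 scaled TPM of WT IAA. The remaining decreases were Snx19, a sorting nexin (7.28 and 9.02 to 0.490 and 0.590 scaled TPM), and Gap43, a growth cone protein whose untreated libraries differed (1.66 and 5.17 to 0.212 and 0.0575), besides Bnip3, Ndufa4l2 and the protocadherins below. Direct contrasts of WT IAA with WT ID come from the same fit and share the WT IAA libraries with the comparison above. WT IAA was lower than WT ID for Hddc3 (log2 difference -2.19 ± 0.49, adjusted p = 0.0075), Snhg17 (-2.66 ± 0.24, adjusted p = 9.1e-06) and Snx19 (-2.32 ± 0.21, adjusted p = 1.0e-05), and was not called against it for Eras (-0.77 ± 0.31, adjusted p = 0.11) or Itga9 (-0.48 ± 0.40, adjusted p = 0.48).

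**Figure D2:**
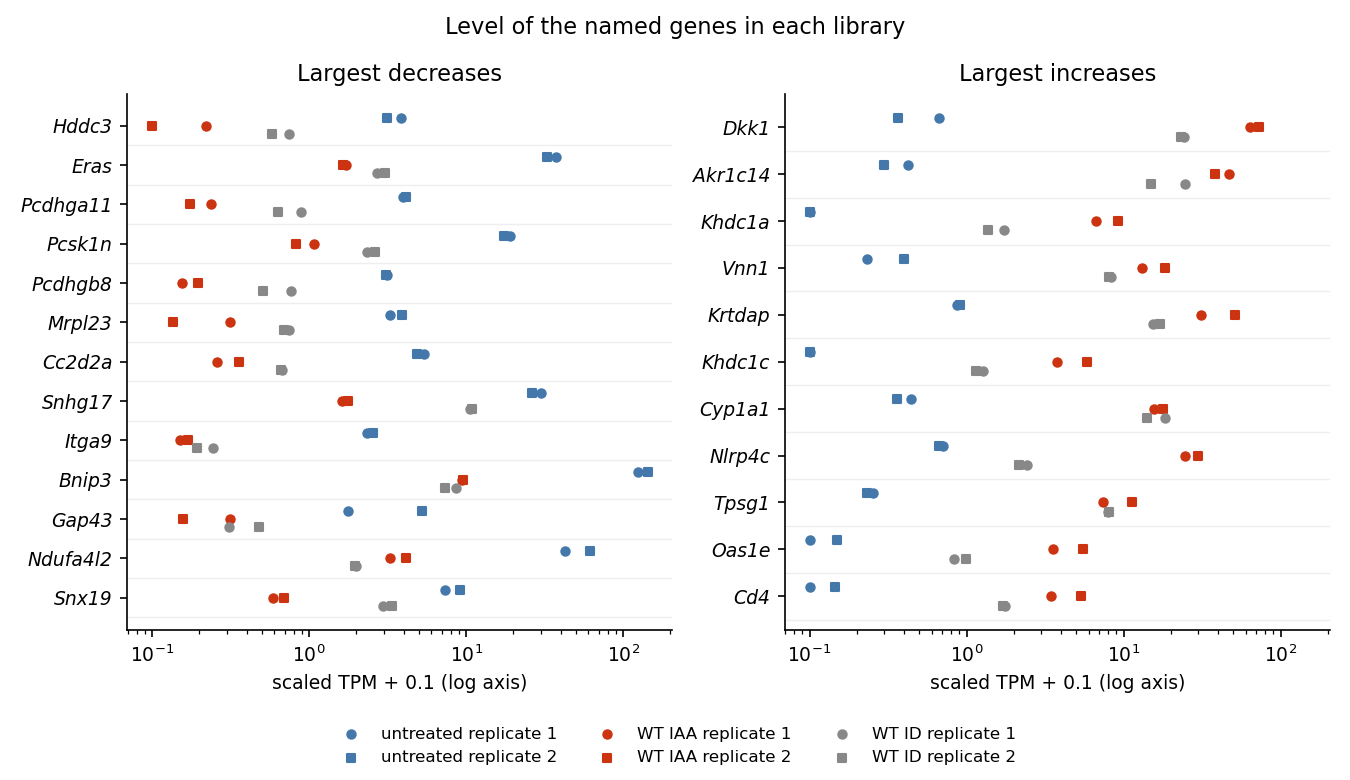
Scaled TPM (+ 0.1, log axis) of 13 of the largest decreases and 11 of the largest increases, microRNA genes left out, in each library. Circles are replicate 1 and squares replicate 2, in blue for untreated, red for WT IAA and grey for WT ID cells. The blue and red points of a gene are separate in every row because no overlap was a condition for choosing these genes. Bnip3 and Cyp1a1 in WT ID lie beside WT IAA.

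The clustered protocadherins are cell adhesion proteins whose alpha, beta and gamma genes lie in a row, each variable exon with its own promoter and most with a CTCF site. Of 57 members matched, 9 gamma genes had a mean of at least 0.5 TPM, and 6 of these fell (background 21.4%), 1 rose and 2 were not called. The median log2 fold change of the 9 was -2.16, against -0.0016 over all genes tested. Pcdhga11 (chr18:37755731-37841873, plus strand) stood at 3.87 and 4.06 scaled TPM in untreated cells and 0.136 and 0.0738 in WT IAA (log2 fold change -4.36 ± 0.35, adjusted p = 1.6e-07, and -5.14 in edgeR), and at 0.791 and 0.534 in WT ID. Pcdhgb8, annotated as a polymorphic pseudogene, stood at 3.06 and 2.98, 0.0558 and 0.0959 (log2 fold change -4.20 ± 0.37, adjusted p = 4.4e-07, and -5.30 in edgeR) and 0.666 and 0.409. For both, each WT ID library lay between the untreated and the WT IAA libraries. Pcdhga2 fell from 1.19 and 0.918 to 0.166 and 0.094 and Pcdhga1 from 1.53 and 1.59 to 0.229 and 0.263, with log2 fold changes of -2.38 ± 0.43 and -2.29 ± 0.32. The gene that rose was Pcdhgc3, the most abundant member, at 14.7 and 13.5 in untreated cells and 21.2 and 21.5 in WT IAA (log2 fold change 0.59 ± 0.11, adjusted p = 4.1e-04). With no filter on level 23 members fell and 1 rose; 29 and 30 of the 57 were at 0 in the untreated libraries and 37 in each WT IAA library. The gamma genes share their last exons, so the division of reads among them by the authors' counting is uncertain.

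The largest increases were genes nearly silent in untreated cells. Dkk1, a secreted inhibitor of Wnt signalling that is itself a Wnt target (chr19:30545863-30549665, minus strand), stood at 0.564 and 0.264 scaled TPM in untreated cells and 64.0 and 72.3 in WT IAA (log2 fold change 7.08 ± 0.29, adjusted p = 3.3e-10), with 13 and 7 reads against 2405 and 1989. In WT ID it stood at 24.1 and 23.1, below both WT IAA and above both untreated libraries. Its nearest tested neighbours lie more than 300 kb away, and neither rose: Mbl2 was not called and Cstf2t changed from 56.0 and 61.9 to 50.4 and 50.1 (log2 fold change -0.23 ± 0.07, adjusted p = 0.014). Akr1c14, a hydroxysteroid dehydrogenase (chr13:4049011-4090688, plus strand), stood at 0.325 and 0.198, 47.0 and 38.01 (log2 fold change 6.86 ± 0.30, adjusted p = 5.4e-10) and 24.6 and 14.8 in WT ID. Its relative Akr1c18, 102 kb away and on the opposite strand, fell from 3.14 and 2.20 to 0.696 and 0.438 (log2 fold change -2.08 ± 0.56, adjusted p = 0.0072).

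Khdc1a and Khdc1c, KH-domain genes of the oocyte and early embryo whose starts lie 18.7 kb apart on chromosome 1, had 0 reads in both untreated libraries and 407 and 237 reads over the 2 WT IAA libraries. Set against a floor of 3 reads over the untreated group, Khdc1a was at least 112-fold and Khdc1c at least 65.1-fold higher in RPM, which covers counting error only. Khdc1a stood at 6.57 and 9.10 scaled TPM in WT IAA against 1.63 and 1.28 in WT ID, and Khdc1c at 3.65 and 5.76 against 1.17 and 1.04. Nlrp4c, another gene of the oocyte and early embryo (chr7:6045161-6105150, plus strand), stood at 0.604 and 0.570 in untreated cells, 24.7 and 29.8 in WT IAA (log2 fold change 5.29 ± 0.42, adjusted p = 1.7e-07) and 2.31 and 2.05 in WT ID. All 3 genes were higher in WT IAA than in WT ID in the same fit, with log2 differences of 2.35 ± 0.44, 1.96 ± 0.46 and 3.58 ± 0.42 and adjusted p-values of 0.0024, 0.0093 and 9.1e-05.

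Krtdap, a secreted protein of differentiating keratinocytes (chr7:30787896-30791097, plus strand), stood at 0.775 and 0.809 in untreated cells, 30.8 and 51.4 in WT IAA (log2 fold change 5.47 ± 0.27, adjusted p = 1.7e-09) and 15.2 and 17.0 in WT ID. Dmkn, another epidermal gene 24.1 kb from it, rose with it, from 0.144 and 0.376 to 2.80 and 4.43 (log2 fold change 3.38 ± 0.33, adjusted p = 1.2e-06). Tpsg1, a mast cell tryptase, stood at 0.152 and 0.132, 7.25 and 11.2 (log2 fold change 5.19 ± 0.20, adjusted p = 1.3e-10, and 5.99 in edgeR) and 7.86 and 7.996. Both of its tested neighbours rose. Sstr5, a somatostatin receptor 128 kb away, went from 0.308 and 0.268 to 7.28 and 6.87 (log2 fold change 4.18 ± 0.28, adjusted p = 3.6e-08). Tpsb2, another tryptase 2.97 kb away, went from 0 in both libraries to 0.973 and 0.996. The neighbours of Cd4, the T cell co-receptor, went the other way. Cd4 had 2 reads over the untreated and 449 over the WT IAA libraries, a ratio of 185 in RPM (exact 95% interval 50.9 to 1533, counting error only). Gpr162, 24.2 kb away, fell from 2.28 and 1.81 to 0.404 and 0.367 (log2 fold change -2.15 ± 0.29, adjusted p = 3.1e-05). Lag3, 23.5 kb away, fell from 7.18 and 6.42 to 3.28 and 4.43 (log2 fold change -0.82 ± 0.19, adjusted p = 0.0029). Oas1e, a member of the antiviral oligoadenylate synthetase family, had 1 read in untreated and 207 in WT IAA cells, a ratio of 171 (30.3 to 6773). Vnn1, a pantetheinase, rose from 0.131 and 0.303 to 13.1 and 18.3 (log2 fold change 5.64 ± 0.31, adjusted p = 5.7e-09) and stood at 8.18 and 8.02 in WT ID. The other 4 of the 15 largest increases were microRNA genes with 0 reads in untreated cells and 7 to 12 in WT IAA (Mir467b, Mir3108, Mir503 and Mir126b), which are not read further.

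Gene lists were read by counts and medians, beside the shares of all tested genes (20.7% up, 21.4% down) and their quartiles of -0.33 and 0.41 on the log2 scale. Members named beyond the 4 largest changes of a list were chosen after their values were seen. The lists with the lowest medians were clustered protocadherins, glycolysis and hypoxia, cholesterol and fatty acid synthesis, and replication-dependent histones. Those with the highest were 2-cell-like state, Hox, Wnt targets and germline.

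**Figure D3:**
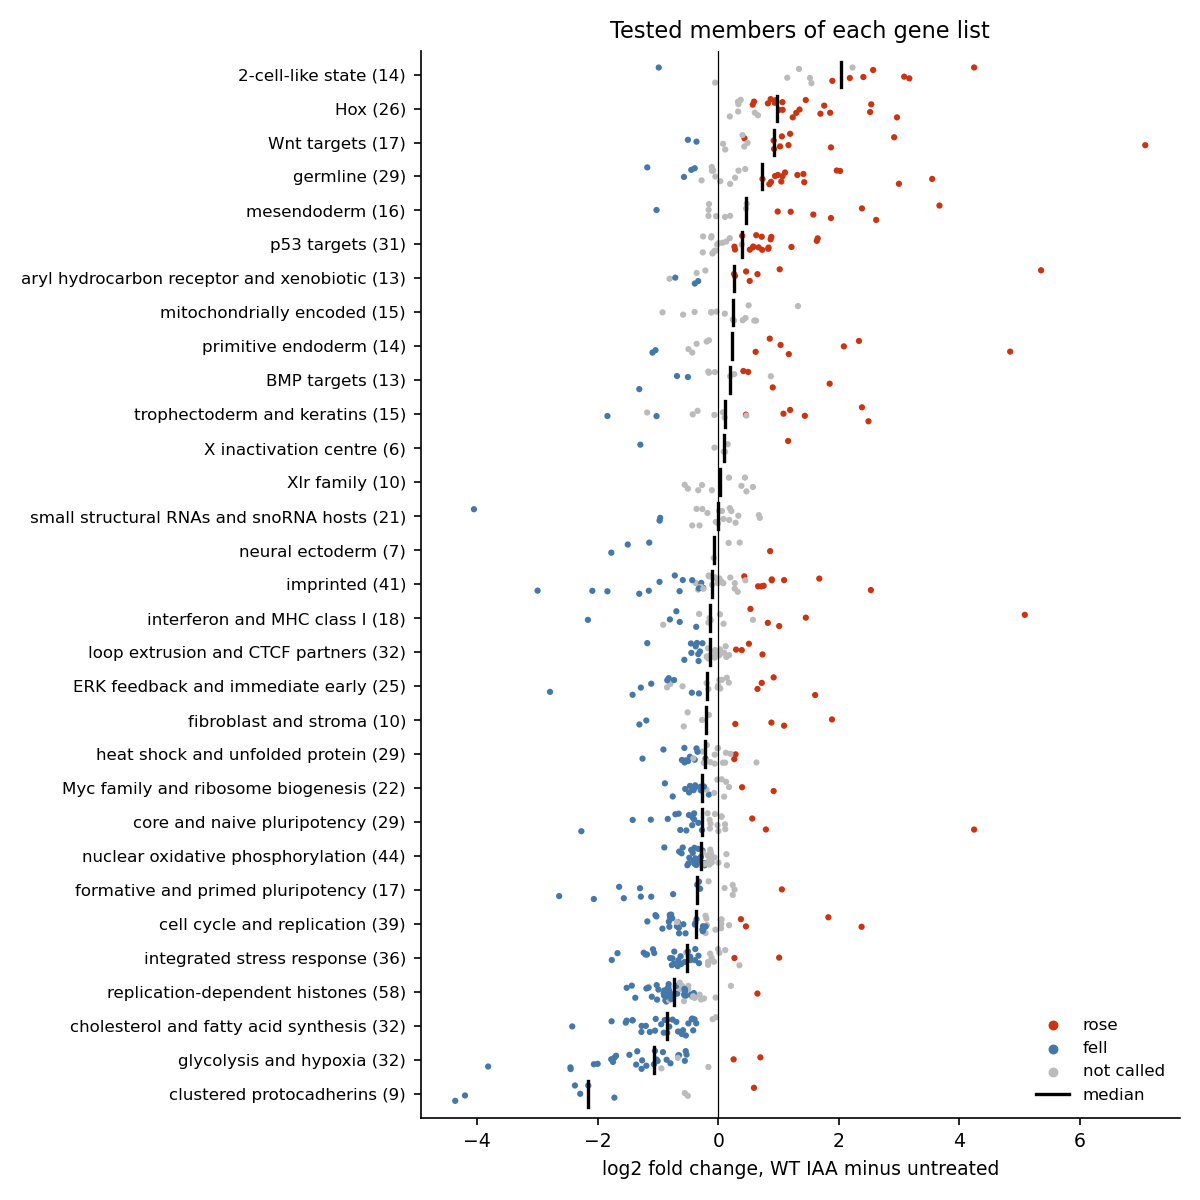
Log2 fold change (WT IAA minus untreated) of every tested member of 31 gene lists, ordered by median (black bar), with the number of tested members in brackets. Red members rose, blue fell and grey were not called; vertical scatter within a row has no meaning. The cholesterol row has 30 blue and 0 red points, and the Hox row 19 red and 0 blue.

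Genes of glycolysis and of the response to low oxygen fell together. Many of them are targets of HIF1, the transcription factor that is stabilised when oxygen is low and binds ACGTG or GCGTG cores, and they include the enzymes that turn glucose into lactate. Of 32 tested members 27 fell, 19 of them at least 2-fold, 2 rose and 3 were not called, and the median was -1.06. Bnip3, a mitophagy receptor (chr7:138890836-138909519, minus strand), stood at 124 and 143 scaled TPM in untreated cells, 9.30 and 9.42 in WT IAA (log2 fold change -3.82 ± 0.23, adjusted p = 1.3e-08) and 8.49 and 7.21 in WT ID. Slc2a1, the glucose transporter GLUT1, stood at 391 and 377.3, 72.6 and 68.1 (log2 fold change -2.45 ± 0.11, adjusted p = 5.4e-10) and 77.0 and 72.3. In both genes the WT ID and WT IAA libraries lay within 10 scaled TPM of each other, far below the untreated ones, and WT IAA was not called against WT ID (log2 difference 0.26 ± 0.23, adjusted p = 0.53 for Bnip3 and -0.09 ± 0.11, adjusted p = 0.67 for Slc2a1).

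Pgk1, phosphoglycerate kinase, fell from 661 and 757 to 175 and 164 (log2 fold change -2.06 ± 0.11, adjusted p = 2.6e-09), with 179 and 183 in WT ID. Ldha, which makes lactate, fell from 917 and 1045 to 296 and 309.5 (log2 fold change -1.69 ± 0.07, adjusted p = 5.5e-10), with 266 and 275 in WT ID. Pkm, pyruvate kinase, fell from 1652 and 1655 to 663 and 641 (log2 fold change -1.34 ± 0.08, adjusted p = 9.1e-09), with 571 and 537 in WT ID. In these 3 enzymes every WT IAA and WT ID library was below every untreated one. Egln3, a prolyl hydroxylase that marks HIF1 for destruction and is itself a HIF1 target, fell from 9.25 and 11.1 to 1.65 and 1.92 (log2 fold change -2.45 ± 0.35, adjusted p = 4.4e-05). Ndufa4l2, a hypoxia-responsive mitochondrial protein outside the list, stood at 42.7 and 61.8, 3.19 and 4.03 (log2 fold change -3.81 ± 0.32, adjusted p = 2.6e-07) and 1.89 and 1.86 in WT ID. It overlaps Shmt2, a gene of the stress response list that also fell, on the opposite strand. Vegfa, the vessel growth factor, stood at 98.1 and 74.2 in untreated cells, 41.6 and 39.8 in WT IAA (log2 fold change -1.07 ± 0.12, adjusted p = 5.1e-06) and 79.8 and 86.7 in WT ID, where it was higher (WT IAA minus WT ID -1.03 ± 0.12, adjusted p = 8.0e-05). The 2 members that rose were Hk1, a hexokinase (log2 fold change 0.26 ± 0.09, adjusted p = 0.026), and Kdm3a, a histone demethylase (log2 fold change 0.70 ± 0.09, adjusted p = 1.7e-05). With the TPM as deposited 27 members still fell and 2 rose.

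The Bnip3 promoter is printed because it belongs to the largest decrease of this list. The 250 bases before its RefSeq start (chr7:138909507-138909756, minus strand, GRCm38.p6) hold ACGTG on both strands, overlapping in 1 palindrome, and GCGTG at 1 place on the printed strand and 2 on the other; capitals mark these matches and their reverse complements.
Bnip3: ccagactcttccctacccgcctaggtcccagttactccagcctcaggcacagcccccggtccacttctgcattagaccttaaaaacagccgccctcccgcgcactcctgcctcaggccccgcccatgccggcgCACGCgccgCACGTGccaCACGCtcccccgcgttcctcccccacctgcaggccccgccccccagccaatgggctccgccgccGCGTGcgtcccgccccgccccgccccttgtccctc

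In the promoter table, 19 of the 27 listed genes with a promoter held ACGTG within the 300-base window (70.4%) and 19 held GCGTG (70.4%), against 28.5% and 54.1% of all tested genes with a promoter. ACGTG was found in 29.8% (167 of 561) of genes that fell at least 2-fold, near the 27.9% of genes not called. Among genes that rose at least 2-fold the share was 22.5%. ACGTG was found in 40.3% (48 of 119) of genes that fell at least 4-fold and in 66 of 287 that rose at least 4-fold. GCGTG was found in 38.7% (46 of 119) and 35.5% (102 of 287) of them, both below the share of all tested genes. These shares describe letters in a window and were not tested.

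Sterol and fatty acid synthesis moved the same way, with no exception among the called genes. These genes are switched on by SREBP2 and SREBP1 when membranes are short of sterol. Of 32 tested members 30 fell, 12 of them at least 2-fold, 0 rose and 2 were not called (Sc5d and Elovl6), and the median was -0.84. With the TPM as deposited 27 fell and 0 rose. Fads2, the delta-6 fatty acid desaturase, stood at 103 and 89.9 scaled TPM in untreated cells, 21.6 and 14.7 in WT IAA (log2 fold change -2.42 ± 0.17, adjusted p = 5.8e-08) and 39.1 and 29.7 in WT ID. Cyp51, the lanosterol demethylase, stood at 134 and 129, 51.2 and 41.0 (log2 fold change -1.52 ± 0.10, adjusted p = 2.4e-08) and 81.5 and 71.2. Lss, lanosterol synthase, stood at 37.5 and 35.6, 13.3 and 11.8 (log2 fold change -1.53 ± 0.08, adjusted p = 1.7e-09) and 17.1 and 15.4. For these 3 genes the WT ID libraries lay between the untreated and the WT IAA libraries, and each was lower in WT IAA than in WT ID (log2 difference for Fads2 -0.93 ± 0.17, adjusted p = 0.0023). Fdps, farnesyl diphosphate synthase, fell from 5.95 and 5.63 to 1.70 and 1.57. Srebf2 itself, which encodes SREBP2, went from 181 and 177 to 112 and 109 (log2 fold change -0.69 ± 0.08, adjusted p = 1.0e-05).

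Of the targets of the integrated stress response, 24 of 36 tested were lower in WT IAA than in untreated cells. This programme is run by the factor ATF4, which raises amino acid transporters, serine and glycine synthesis and tRNA synthetases when translation is stressed. Of the 24 that fell 7 did so at least 2-fold, while 2 rose (Sesn2 and Cebpb) and 10 were not called, with a median of -0.52. With the TPM as deposited 16 fell and 4 rose. Slc7a3, a cationic amino acid transporter, stood at 62.0 and 56.8 in untreated cells, 18.1 and 16.7 in WT IAA (log2 fold change -1.77 ± 0.09, adjusted p = 1.8e-09) and 47.6 and 47.0 in WT ID. Chac1, a glutathione-degrading enzyme, stood at 38.8 and 27.1, 11.2 and 9.16 (log2 fold change -1.67 ± 0.18, adjusted p = 3.5e-06) and 70.5 and 65.3, so that the untreated libraries lay between the other groups. Atf4 stood at 411 and 340.4, 278 and 265 (log2 fold change -0.46 ± 0.12, adjusted p = 0.0058) and 529.5 and 497, in the same order. WT IAA was lower than WT ID for both, with log2 differences of -2.73 ± 0.18 for Chac1 (adjusted p = 3.8e-07) and -0.92 ± 0.12 for Atf4 (adjusted p = 2.0e-04). Asns, asparagine synthetase, had another pattern: it stood at 855 and 864 in untreated cells and 939 and 925 in WT IAA and was not called (log2 fold change 0.12 ± 0.10, adjusted p = 0.35). Ddit4 and Vldlr were the other large decreases (-1.24 ± 0.25 and -1.21 ± 0.24).

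**Figure D4:**
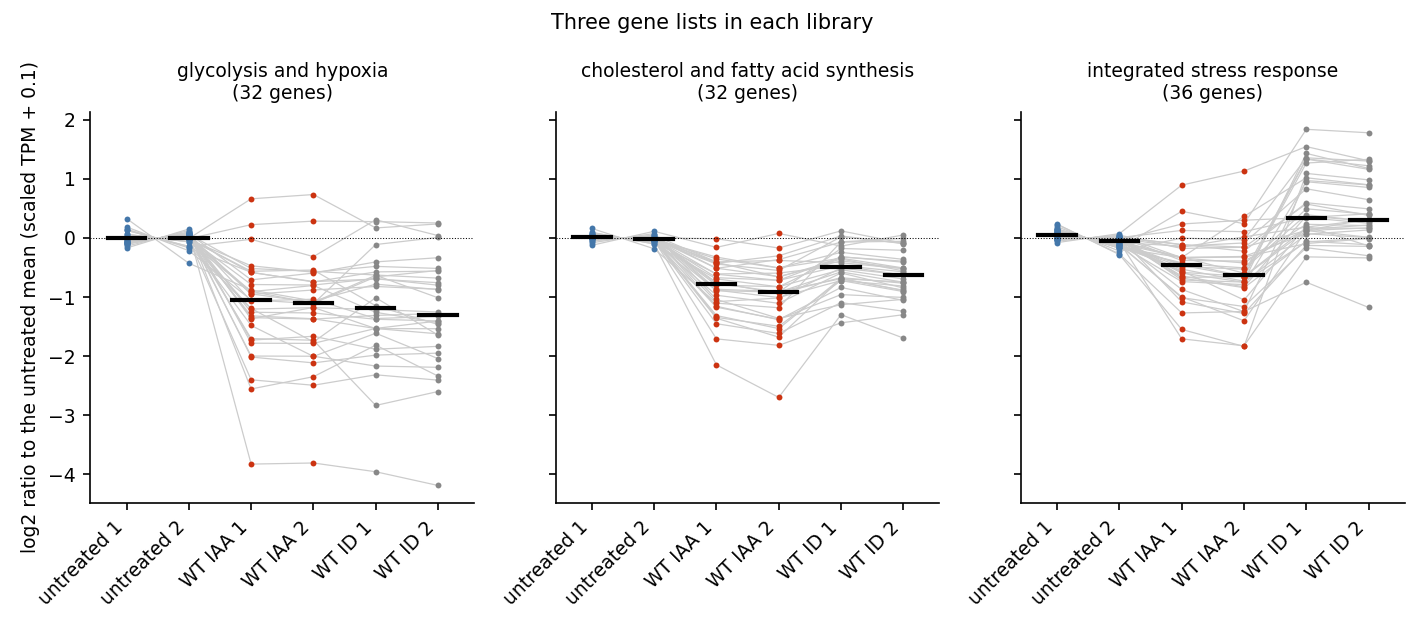
Log2 ratio of each tested gene's scaled TPM (+ 0.1) to its mean over the untreated libraries, for 3 gene lists, in untreated (blue), WT IAA (red) and WT ID (grey) libraries 1 and 2. Grey lines join the values of 1 gene and black bars are medians: glycolysis and hypoxia genes had medians of -1.06 and -1.11 in WT IAA and -1.18 and -1.30 in WT ID, cholesterol genes -0.78 and -0.91 against -0.49 and -0.63, and stress response genes -0.45 and -0.62 against 0.35 and 0.30.

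Most histone and replication genes were lower. Replication-dependent histones, which package newly made DNA and whose messages mostly lack poly(A) tails, had 38 of 58 tested members lower (8 at least 2-fold) and 1 higher (H2ac1), with a median of -0.74. H2bc18 stood at 504 and 708 in untreated cells and 217 and 201 in WT IAA (log2 fold change -1.52 ± 0.20, adjusted p = 2.2e-05). H4c14 went from 258 and 313 to 102 and 109 (log2 fold change -1.43 ± 0.17, adjusted p = 8.6e-06). The count depended on single libraries: without untreated replicate 2 it was 22, and without untreated replicate 1 it was 46. Reads of near-identical histone copies may have been divided or dropped by the counting.

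Of 39 cell cycle and replication genes, 24 fell, 4 rose and 11 were not called, with a median of -0.36. Ccnd3, cyclin D3, fell from 116 and 109.7 to 50.8 and 49.2 (log2 fold change -1.18 ± 0.09, adjusted p = 1.4e-07). Cdk6, its kinase partner, fell from 19.9 and 24.99 to 10.3 and 11.3 (log2 fold change -1.04 ± 0.17, adjusted p = 1.8e-04). All 6 genes of the MCM helicase were among those that fell, by 0.65 (Mcm2) to 0.93 (Mcm4) on the log2 scale. Those that rose were Ccnd2, another cyclin D, from 0.078 and 0.0967 to 0.941 and 0.899 (log2 fold change 2.38 ± 0.25, adjusted p = 3.0e-06, and 3.39 in edgeR), Cdkn2b, an inhibitor of CDK4 and CDK6, from 4.62 and 3.23 to 14.4 and 13.6 (log2 fold change 1.83 ± 0.25, adjusted p = 4.0e-05), Tk1 and Ccne2. With the TPM as deposited 17 fell and 6 rose.

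Nuclear genes of oxidative phosphorylation had 25 of 44 members lower and 0 higher, with a median of -0.29 and no member past 2-fold; with the TPM as deposited 13 were lower and 2 higher. Ndufb10, a subunit of complex I, changed most, from 85.2 and 93.3 to 46.8 and 49.1 (log2 fold change -0.89 ± 0.08, adjusted p = 6.2e-07). None of the 15 genes encoded in mitochondria was called by limma. In edgeR 0 rose and 1 fell, and with only the 4 libraries in the fit 4 rose and 0 fell.

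Targets of p53, the factor that answers DNA damage, leaned upwards: 17 of 31 tested members rose, 0 fell and 14 were not called, with a median of 0.39. Mdm2, which encodes the ligase that destroys p53, stood at 78.1 and 74.7 in untreated cells, 134 and 148 in WT IAA (log2 fold change 0.88 ± 0.09, adjusted p = 2.3e-06) and 90.9 and 84.7 in WT ID. Plk2, a kinase, stood at 17.8 and 14.3, 50.2 and 49.6 (log2 fold change 1.64 ± 0.19, adjusted p = 6.1e-06) and 29.7 and 20.7. Ddit4l stood at 12.2 and 10.8, 25.2 and 28.5 (log2 fold change 1.22 ± 0.16, adjusted p = 2.5e-05) and 15.4 and 12.4. In these 3 genes WT ID lay nearer to untreated cells than WT IAA did. Cdkn1a, the p21 cell cycle inhibitor, was not called, at 179.7 and 156 in untreated cells and 179.9 and 203 in WT IAA. The number that rose was 12 without WT IAA replicate 2, and 12 rose and 1 fell without untreated replicate 2.

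Cyp1a1, the cytochrome P450 that is the best known target of the aryl hydrocarbon receptor, was among the largest increases. The receptor is a sensor of planar ring compounds, indoles among them, and binds GCGTG cores. Cyp1a1 (chr9:57687928-57703824, plus strand) stood at 0.340 and 0.263 scaled TPM in untreated cells, 15.6 and 17.8 in WT IAA (log2 fold change 5.36 ± 0.30, adjusted p = 6.0e-09) and 18.2 and 13.99 in WT ID. The WT IAA and WT ID libraries, which differ in doxycycline, overlapped (log2 difference 0.06 ± 0.30, adjusted p = 0.93). Of 13 tested genes of the receptor and of xenobiotic defence, 7 rose, 3 fell and 3 were not called. Srxn1, a sulfiredoxin, rose from 46.4 and 45.3 to 90.3 and 95.9 (log2 fold change 1.02 ± 0.14, adjusted p = 2.5e-05). Nqo1, a quinone reductase, rose from 59.2 and 44.97 to 86.6 and 76.0 (log2 fold change 0.65 ± 0.16, adjusted p = 0.0041), a call lost without untreated replicate 2. Hmox1, heme oxygenase, fell from 107 and 95.3 to 63.0 and 60.1 (log2 fold change -0.71 ± 0.11, adjusted p = 9.1e-05). Tiparp, another receptor target, fell as well (log2 fold change -0.39 ± 0.07, adjusted p = 2.8e-04). The nearest tested genes moved less than Cyp1a1: Csk, 34.3 kb away, changed from 51.1 and 49.7 to 67.4 and 69.4 (log2 fold change 0.44 ± 0.05, adjusted p = 9.9e-06). Edc3, 20.6 kb away, was not called. Both distances are from the annotated gene start, chr9:57687928, and not from the RefSeq start whose promoter is printed below.

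The 250 bases before the RefSeq start of Cyp1a1 (chr9:57697363-57697612, plus strand, GRCm38.p6) are printed because the gene is the largest increase of its list. GCGTG, in capitals, occurs at 1 place on the printed strand and at 0 on the other, and was found in the 300-base window of 54.1% of tested genes.
Cyp1a1: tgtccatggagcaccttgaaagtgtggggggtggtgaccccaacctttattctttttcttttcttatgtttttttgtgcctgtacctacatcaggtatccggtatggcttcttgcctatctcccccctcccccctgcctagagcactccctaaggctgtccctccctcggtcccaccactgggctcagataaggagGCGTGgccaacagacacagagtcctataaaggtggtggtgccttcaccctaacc

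Pluripotency genes stayed abundant, but 15 of 29 core and naive members fell and 3 rose, with a median of -0.27; with the TPM as deposited 11 fell and 5 rose. Pou5f1 (log2 fold change -0.40 ± 0.08, adjusted p = 0.001), Sox2 (801 and 835 to 599 and 619.6, log2 fold change -0.42 ± 0.08, adjusted p = 3.9e-04) and Esrrb (445 and 456 to 327 and 318, log2 fold change -0.48 ± 0.06, adjusted p = 1.6e-05) each fell by less than a factor of 1.5. Zfp42, the naive marker Rex1, fell by 0.27 ± 0.08 (adjusted p = 0.012), a call that was lost with the TPM as deposited, with only the 4 libraries in the fit and without WT IAA replicate 2 or untreated replicate 2. Nanog and Klf4 were not called (-0.01 ± 0.09 and 0.11 ± 0.12). The largest decreases were Lin28a, an RNA-binding protein that blocks let-7, from 108 and 141 to 24.1 and 27.0 (log2 fold change -2.27 ± 0.16, adjusted p = 4.2e-08), and Utf1, from 285 and 253 to 102 and 99.5 (log2 fold change -1.42 ± 0.24, adjusted p = 2.4e-04). Tdgf1, the Nodal co-receptor Cripto, fell from 1361 and 1352 to 603 and 648 (log2 fold change -1.12 ± 0.07, adjusted p = 3.1e-08). Dppa3, also called Stella, a factor of the naive state and of germ cells, rose the most, from 11.8 and 10.7 to 196 and 235 (log2 fold change 4.25 ± 0.34, adjusted p = 1.6e-07), with 78.4 and 79.4 in WT ID. The others that rose were Gbx2 and Dppa2.

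Formative and primed genes, which rise as cells leave the naive state, had 11 of 17 members lower and 1 higher (Lef1), with a median of -0.35. Lefty2, a Nodal antagonist, stood at 110.5 and 122 in untreated cells, 16.7 and 20.7 in WT IAA (log2 fold change -2.64 ± 0.54, adjusted p = 0.0011) and 10.6 and 9.43 in WT ID. Lefty1 beside it in the genome fell from 10.6 and 14.4 to 3.01 and 2.76 (log2 fold change -2.06 ± 0.40, adjusted p = 6.4e-04). Targets and feedback genes of the ERK pathway had 9 of 25 members lower and 4 higher. Spry4, a feedback inhibitor, fell from 12.3 and 15.96 to 1.74 and 2.17 (log2 fold change -2.79 ± 0.24, adjusted p = 3.8e-07). Etv4 fell from 106 and 94.9 to 42.9 and 39.5 (log2 fold change -1.28 ± 0.12, adjusted p = 8.3e-07), and Junb from 32.6 and 34.3 to 10.7 and 14.5 (log2 fold change -1.42 ± 0.18, adjusted p = 1.3e-05). Fosl1 went the other way, from 0.103 and 0.405 to 1.24 and 0.651 (log2 fold change 1.61 ± 0.50, adjusted p = 0.018), a call lost without WT IAA replicate 1 or untreated replicate 1 and with only the 4 libraries in the fit. Its log2 fold change was 0.95 without untreated replicate 1 and 2.27 without untreated replicate 2. Spry2, Klf6 and Myc rose too. Mycn, the Myc gene most used by stem cells, fell from 56.4 and 57.9 to 31.0 and 30.8 (log2 fold change -0.88 ± 0.09, adjusted p = 1.1e-06). Myc rose from 6.54 and 9.84 to 14.5 and 16.1 (log2 fold change 0.92 ± 0.28, adjusted p = 0.015), a call lost without WT IAA replicate 2 or untreated replicate 1. Of 22 Myc family and ribosome biogenesis genes 13 fell and 2 rose (Myc and Mxi1), but with the TPM as deposited 6 fell and 6 rose.

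Wnt targets had 10 of 17 tested members higher and 2 lower (Bmp4 and Ccnd1), with a median of 0.92. Beside Dkk1, Sp5, a transcription factor that reports Wnt activity in stem cells, rose from 10.5 and 12.7 to 83.8 and 92.2 (log2 fold change 2.92 ± 0.28, adjusted p = 8.8e-07), with 50.2 and 61.0 in WT ID. T, the mesoderm factor Brachyury, rose from 0.545 and 1.07 to 3.38 and 2.86 (log2 fold change 1.87 ± 0.38, adjusted p = 9.2e-04). Cdx2 rose from 0.559 and 0.445 to 1.23 and 1.37 (log2 fold change 1.19 ± 0.28, adjusted p = 0.0027). Axin2, the general feedback inhibitor of the pathway, rose from 38.7 and 44.1 to 79.2 and 78.2 (log2 fold change 0.93 ± 0.09, adjusted p = 1.7e-06). Of the genes for the DNA-binding factors of the pathway, Lef1 rose, as given with the formative genes above, and Tcf7l1 and Tcf7 were not called. All cells were grown with CHIR99021, which switches the pathway on.

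Hox genes, which pattern the body axis and lie in clusters with CTCF sites between active and silent parts, had 19 of 26 tested members higher and 0 lower, of 39 matched; the median was 0.98. Hoxd9 stood at 2.71 and 1.37 scaled TPM in untreated cells, 17.4 and 14.5 in WT IAA (log2 fold change 2.97 ± 0.22, adjusted p = 9.8e-08) and 13.9 and 11.2 in WT ID. Hoxd8, beside it, stood at 1.76 and 1.33, 10.1 and 8.84 (log2 fold change 2.54 ± 0.23, adjusted p = 5.0e-07) and 9.38 and 6.48. Hoxd4 stood at 0.143 and 0.155, 1.38 and 1.38 (log2 fold change 2.52 ± 0.38, adjusted p = 7.9e-05, and 3.21 in edgeR) and 0.970 and 0.788. Each was higher in WT IAA and in WT ID than in untreated cells, with no overlap, and Hoxd9 in WT IAA was not called against WT ID (log2 difference 0.35 ± 0.22, adjusted p = 0.34). Hoxa9 rose from 0.528 and 0.377 to 1.99 and 1.85 (log2 fold change 1.86 ± 0.27, adjusted p = 5.7e-05). Hoxc13, a Hox gene with a level above most others here, was not called (20.6 and 17.6 in untreated cells and 22.1 and 21.5 in WT IAA). Most of these levels were low, and with a mean of at least 5 TPM as the filter 6 members rose and 0 fell. Reads on the silent receptor, keratin-associated and defensin families were higher in WT IAA as well (89.8 and 86.6 against 51.6 and 54.2 RPM), and their part in the Hox, germline and 2-cell-like counts was not tested.

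Genes of the 2-cell-like state, a rare condition in which embryonic stem cells express genes of the 2-cell embryo, were mostly low in every group. Of 25 members matched 14 were tested, of which 7 rose, 1 fell (Gata2) and 6 were not called, with a median of 2.04. Members near silent in untreated cells, such as Gm8300 and Usp17lc, passed the level filter only through WT IAA. The count and the median therefore follow in part from the filter. Of the 25, 6 and 8 were at 0 in the untreated libraries and 3 in each WT IAA library. Apart from Dppa3, the increases were of genes below 4 scaled TPM: Gm8300 stood at 0.450 and 0.0979 in untreated cells, 2.41 and 3.25 in WT IAA (log2 fold change 3.09 ± 0.56, adjusted p = 4.3e-04) and 0.367 and 0.543 in WT ID. Usp17lc stood at 0.301 and 0, 1.16 and 1.19 (log2 fold change 2.57 ± 0.72, adjusted p = 0.0091) and 0.194 and 0.118. WT IAA was above both other groups in these genes, and the call of Usp17lc was lost without untreated replicate 2 and with only the 4 libraries in the fit. Gm4340 had 1 read in untreated and 46 in WT IAA cells, a ratio of 37.9 (exact 95% interval 6.48 to 1530). Without untreated replicate 1 or replicate 2 the log2 fold change was 3.78 or 2.39 for Gm8300 and 3.49 or 1.65 for Usp17lc. The number that rose was 4 without untreated replicate 2, and reads of these near-identical copies are uncertain.

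Germline genes, many of them silenced by DNA methylation in stem cells, had 15 of 29 tested members higher and 4 lower (Smc1b, Tex14, Prdm1 and Mageb16), with a median of 0.73. The list has 35 members matched. Some low ones, Tex19.2 and Brdt among them, passed the level filter only through WT IAA, so the count and median follow in part from it. Tex19.2 stood at 0.257 and 0.358 in untreated cells, 4.33 and 5.17 in WT IAA (log2 fold change 3.55 ± 0.27, adjusted p = 1.1e-07) and 0.751 and 0.674 in WT ID. Brdt, a testis bromodomain protein, stood at 0.164 and 0.287, 2.53 and 2.52 (log2 fold change 3.00 ± 0.18, adjusted p = 1.1e-08) and 1.65 and 1.39. Dazl, an RNA-binding protein of germ cells, stood at 11.3 and 8.63, 42.2 and 35.8 (log2 fold change 1.97 ± 0.27, adjusted p = 3.0e-05) and 29.8 and 21.6. In WT ID Brdt and Dazl lay above untreated cells and below WT IAA, while Tex19.2 stood less than 1 scaled TPM above untreated cells.

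Markers of other lineages moved in both directions and most stayed low. Of 16 tested mesendoderm genes 7 rose and 1 fell (Eomes). Wnt8a rose from 0.361 and 0.367 to 5.29 and 6.62 (log2 fold change 3.67 ± 0.28, adjusted p = 9.5e-08) and stood at 1.55 and 1.46 in WT ID. Of 14 primitive endoderm genes 7 rose and 2 fell (Fst and Col4a1). Dab2, an endocytic adaptor of the primitive endoderm, rose from 0.215 and 0.137 to 7.89 and 8.14 (log2 fold change 4.84 ± 0.39, adjusted p = 1.9e-07, and 5.54 in edgeR). Gata6, the factor that founds that lineage, rose from 0.436 and 0.253 to 2.15 and 2.14 (log2 fold change 2.34 ± 0.29, adjusted p = 1.5e-05), and in WT ID Dab2 stood at 3.32 and 2.10 and Gata6 at 1.02 and 0.759. Trophectoderm and keratin genes had 6 of 15 higher and 2 lower. Krt8, a keratin of simple epithelia, rose from 23.1 and 20.8 to 59.0 and 60.03 (log2 fold change 1.44 ± 0.21, adjusted p = 6.0e-05). Ascl2, a placental factor, fell from 11.4 and 8.12 to 3.62 and 1.90 (log2 fold change -1.84 ± 0.35, adjusted p = 6.5e-04). Neural genes had 1 of 7 tested members higher (Lhx2) and 3 lower. Among them Ncam1, a neural adhesion protein, fell from 20.1 and 21.8 to 6.29 and 5.82 (log2 fold change -1.77 ± 0.16, adjusted p = 5.9e-07) and Sox1, from 13.1 and 10.0 to 4.197 and 3.80 (log2 fold change -1.50 ± 0.17, adjusted p = 6.2e-06). Of 10 fibroblast genes 4 rose and 2 fell: Vim, the intermediate filament vimentin, fell from 201 and 217 to 91.9 and 77.3 (log2 fold change -1.31 ± 0.12, adjusted p = 5.4e-07).

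The summed scaled TPM of the whole lists were higher in WT IAA for 3 lineages and lower for 2. They were 592 to 594 in untreated and 658 to 682 in WT IAA cells for 18 primitive endoderm genes and 39.3 to 47.6 and 71.0 to 72.0 for 20 mesendoderm genes. They were 398 to 413 and 459.9 to 479.6 for 20 trophectoderm and keratin genes. They were 149 to 149.8 and 128 to 132 for 20 neural genes, and 917 to 954 and 753 to 757 for 18 fibroblast genes. The fibroblast genes Dcn, Postn and S100a4, the neural genes Dcx and Fabp7 and the placental genes Prl3d1 and Tpbpa were at 0 in all 4 libraries. The part of other cell types in the results above was not tested. In bulk RNA, a change in the number of cells of a type and a change in RNA per cell cannot be told apart.

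Imprinted genes, expressed from 1 parental copy and often flanked by CTCF sites, moved in both directions: 9 of 41 tested members rose, 13 fell and 19 were not called, with a median of -0.10. Beside Peg12, Peg10 fell from 20.2 and 19.8 to 4.80 and 4.48 (log2 fold change -2.09 ± 0.33, adjusted p = 1.1e-04) and stood at 10.0 and 7.39 in WT ID. Dio3, a thyroid hormone deiodinase at the end of the Dlk1 domain, rose from 4.15 and 2.84 to 21.4 and 19.4 (log2 fold change 2.53 ± 0.26, adjusted p = 2.1e-06), with 8.56 and 7.30 in WT ID. Of the X inactivation centre, where CTCF sites part the Xist and Tsix domains, 6 genes were tested. Tsx fell from 6.997 and 6.42 to 3.02 and 2.39 (log2 fold change -1.29 ± 0.18, adjusted p = 4.2e-05). Nap1l2 rose from 2.73 and 1.48 to 5.06 and 4.29 (log2 fold change 1.16 ± 0.30, adjusted p = 0.0056, lost without untreated replicate 2 and with only the 4 libraries in the fit). Chic1, Rlim, Tsix and Ftx were not called. None of the 10 X-linked Xlr genes was called by limma. In edgeR and in DESeq2 2 of them rose and 0 fell.

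Most partners of CTCF changed little or were not called. Of 32 tested genes of loop extrusion and known partners, 11 fell, 4 rose and 17 were not called, with a median of -0.14. This direction turned with the scaling: with the TPM as deposited 4 fell and 11 rose. The members that changed most are meiotic cohesin genes. Smc1b fell from 16.9 and 14.2 to 7.77 and 5.95 (log2 fold change -1.18 ± 0.22, adjusted p = 5.6e-04), with 14.8 and 13.5 in WT ID. Rec8 rose from 16.7 and 17.5 to 25.1 and 32.4 (log2 fold change 0.73 ± 0.17, adjusted p = 0.0023) and Stag3 fell from 23.97 and 21.7 to 15.5 and 15.3 (log2 fold change -0.56 ± 0.12, adjusted p = 0.0014). Patz1, a zinc finger protein that binds near CTCF sites, rose from 72.6 and 73.0 to 104 and 104 (log2 fold change 0.51 ± 0.05, adjusted p = 1.6e-06). Rad21, Smc3, Nipbl and Wapl, which form, load and release the cohesin ring, were not called, with log2 fold changes of 0.10 ± 0.06, -0.17 ± 0.07, -0.05 ± 0.07 and -0.02 ± 0.07.

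The heat shock and unfolded protein list leaned downwards (median -0.21), while the interferon and BMP lists moved in both directions. Heat shock and unfolded protein genes had 12 of 29 members lower and 2 higher (Edem1 and Sel1l), led by Sdf2l1, a chaperone partner of the endoplasmic reticulum, from 83.6 and 82.6 to 36.0 and 33.6 (log2 fold change -1.26 ± 0.11, adjusted p = 4.1e-07). Interferon and MHC class I genes had 5 of 18 higher and 5 lower. Ddx58, the RNA sensor RIG-I, fell from 10.9 and 13.5 to 2.65 and 2.63 (log2 fold change -2.16 ± 0.16, adjusted p = 8.6e-08). Tap1, a peptide transporter, rose from 1.86 and 1.57 to 4.33 and 5.52 (log2 fold change 1.45 ± 0.23, adjusted p = 1.1e-04). BMP targets had 4 of 13 higher and 3 lower. Id3, an inhibitor of differentiation factors, stood at 4.17 and 6.80 in untreated cells, 17.0 and 22.3 in WT IAA (log2 fold change 1.85 ± 0.50, adjusted p = 0.0075) and 3.05 and 5.51 in WT ID. Its call was lost without WT IAA replicate 2 or untreated replicate 1. Of 21 small structural RNAs and host genes of small nucleolar RNAs 3 fell: Snhg17 (above), Rpph1, the RNA of RNase P (log2 fold change -0.97 ± 0.29, adjusted p = 0.013), and Rn7s1 (log2 fold change -0.96 ± 0.36, adjusted p = 0.044), whose call was lost under 7 alternatives, DESeq2 among them. The call of Rpph1 was lost without WT IAA replicate 2 or untreated replicate 2. None of the 21 rose in limma, while 3 rose in edgeR.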

How the data were processed

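Total RNA sequencing of mouse embryonic stem cells was analysed in 24 libraries of 12 groups (2 each), of which untreated and WT IAA cells are compared here. Per the labels' protocols, 500 ng of RNA went into stranded libraries depleted of ribosomal RNA and sequenced on an Illumina instrument. Trim Galore, STAR and DESeq2 with mm10 are named in the submitters' processing notes; for their versions and for the read counter with its annotation and use of strand, no source used here gives a statement. The authors deposited TPM (transcripts per 1000000, scaled by gene length) and, as a signal, gene counts over a size factor for each library, with the untreated libraries scaled apart. Whole reads were recovered from the second table by its smallest step, and 100% of values came out whole within 0.001.

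TPM were the main values. For each library, log2(TPM + 0.1) was centred by 1 constant, the median log2 ratio to the mean of the 24 libraries. Scaled TPM are TPM multiplied by the matching factor. The centred values were fitted with limma 3.58.1 (R 4.3.3) for every library in 1 model with 12 residual degrees of freedom. Tested were 19214 of 55291 genes, those with a mean of at least 0.5 TPM over the 4 libraries. Benjamini-Hochberg adjustment was used with a threshold of 0.05. Using all libraries lets groups of 2 share 1 estimate of the spread. edgeR 4.0.16 (quasi-likelihood) and DESeq2 1.42.0 on the recovered reads were alternatives, as were no centring, a pseudocount of 1, no filter, a filter of 5 TPM, a fit of the 4 libraries alone, a block on the replicate number and leaving out each library. The fit was tested on simulated data. Intervals and floors of reads cover counting error only.

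Genes named are Ctcf, the 15 largest called increases and the 15 largest called decreases (mean TPM 1 or more, no overlap, a proper symbol), their nearest tested neighbours, and up to 4 called members of each of 31 lists with the 6 core pluripotency genes; others are said to be chosen after their values were seen. Of 868 list genes 864 were matched, 1 by an older symbol. The members and lists were chosen with earlier results of these data known. Positions are from GENCODE for mm10, and promoters are from RefSeq (GRCm38.p6), matched by symbol.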

Additional observations from a re-analysis of the deposited data

How the results depend on the processing

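The main test called 3976 genes higher and 4116 lower. Without centring the number lower was 2262, and 5798 were higher, the median gene having shifted by 0.18 on the log2 scale. Genes changed at least 2-fold numbered 1677 higher and 894 lower; with a filter of 5 TPM they were 522 and 347, and with a pseudocount of 1 they were 894 and 556, the first having fewer genes to test and the second shrinking the change of low genes. Leaving out 1 library gave 3001 to 3387 genes higher and 3150 to 3435 lower, of which 1446 to 1679 and 805 to 934 changed at least 2-fold. edgeR called 4167 higher and 3801 lower, and DESeq2 3831 and 3974. None of the genes named by the rule changed sign with a call under any alternative run, which was not checked for other called genes, and without centring the loop extrusion list turned from 11 lower and 4 higher to 4 lower and 11 higher. Among single genes and list counts under the alternatives, 2334 values kept their call or count, 56 calls were lost, 4 were gained and 110 list counts moved by more than 1.5 times, most often counts of a few genes. The labels number the replicates in each group; no label says that a number marks a shared culture or batch. The deviations of same-numbered libraries correlated at 0.10 for untreated with WT IAA, 0.17 for untreated with WT ID and 0.23 for WT IAA with WT ID, within a range of -0.25 to 0.41 over all pairs of groups, and 2 numbers a group cannot settle a pairing. With the replicate as a block 3999 genes were higher and 4122 lower. The contrasts of WT IAA with WT ID were not refitted with the block. Genes with few or no reads in either group have fold changes that depend on the pseudocount; bounds or counting intervals are given for Khdc1a, Khdc1c, Oas1e, Cd4 and Gm4340.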
